A study of Gallus gallus with 8 samples.

Results

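The splicing machinery genes described here were 51 genes of the chicken array whose symbols belong to the SR protein (SRSF), hnRNP (HNRNP), snRNP (SNRP), SF3A and SF3B, PRPF and U2AF families, out of 13009 genes with a probe set of 1 symbol. The rule used symbols alone and no measured values, though it was set with earlier results of these data known. These symbols are carried by 135 probe sets. A probe set is the group of oligonucleotides that measures a transcript, and each gene was read from its brightest one, by the mean log2 value of the 8 arrays. Of the 51 genes, 50 passed the filter on dim probe sets, which was applied to the mean over both tissues. SNRPF did not, and was not tested.

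Total RNA came from chicken embryos (Gallus gallus) at Hamburger-Hamilton stage 8, with no strain, genotype or agent named in the labels. The cranial neural fold, the rising edge of the neural plate from which neural crest cells later leave, was set against the cranial neural plate, given as ventral in the series text. Each tissue gave 4 Affymetrix arrays. The series text names 80 to 114 embryos, which implies pools, and how they were divided among samples is not stated, so p-values measure the spread between samples that may in part be technical.

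Splicing removes introns from pre-mRNA in the spliceosome, which is built from small nuclear ribonucleoproteins (snRNPs), each a small RNA in a ring of Sm proteins, and from many other proteins. SR proteins bind exons and recruit this machinery, while hnRNP proteins coat nascent transcripts and often repress nearby splice sites, so their balance sets which exons are kept. The core machinery is used by every cell, and tissue-restricted regulators such as the ESRP, MBNL and RBFOX proteins are layered on top of it.

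The neural fold and ventral plate markers moved as the labels and series text imply, and some markers of other tissues moved too. The marker lists were chosen with earlier results of these data known, so they are not an independent check. All 8 neural fold and crest genes of a marker list (PAX7 and TFAP2B among them) rose in neural fold, and all 5 measured ventral neural plate and floor plate genes (NKX6-1, FOXA2) were lower there. Axial mesoderm genes also moved with the contrast: 3 of 4 (CHRD and GSC among them) were lower in neural fold, where their summed normalised intensity was 872 to 1352, against 10768 to 17134 in neural plate. Endoderm genes gave 1 of 3 lower (SOX17, and APOA1 was not past the threshold), pan-neural genes 2 of 4 lower (SOX2 and CDH2), surface ectoderm genes 1 of 4 higher (CDH1, and GATA3 was not past the threshold), and blood and endothelial genes 0 of 3 (LMO2 was nearest, at -2.39 ± 0.46, adjusted p = 0.050). With the replicate number as a block, LMO2 (adjusted p = 0.0062) and APOA1 (-1.42 ± 0.11, adjusted p = 0.012) passed as lower, and no other marker call changed. Array 1 of each tissue differed from the rest: its deposited median was 195.8 (neural fold) or 182.3 (neural plate), whereas the remaining 6 arrays had medians of 105.4 to 121.7. Actin signal at the 3′ end over that at the 5′ end, a sign of RNA integrity, ran from 1.36 to 2.0 in neural fold and from 1.57 to 1.99 in neural plate. The same ratio for GAPDH was 1.4 and 1.22 on the arrays numbered 1 of neural fold and neural plate, against 0.85 to 1.04 on the other 6.

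No gene of the splicing machinery passed the test between neural fold and neural plate, and the measured differences were small. Among the 50 tested genes, 0 were higher and 0 lower in neural fold at an adjusted p under 0.05 (limma, 4 arrays against 4, adjusted over 23063 probe sets). Over all 10279 tested genes these shares were 0.924% and 0.827%, so a count of 0 among 50 genes is near the background. At an unadjusted p under 0.05 there were again 0 of 50 in either direction, where all tested genes gave 4.01% higher and 5.06% lower. Differences, all given as neural fold minus neural plate on the scale log2(intensity + 16), ran from -0.31 for SRSF5 to 0.29 for PRPF38B. The median was 0.0020, beside -0.0052 over all tested genes, and the median size without sign was 0.092 beside 0.166. Among genes with a mean log2 value of at least 12, the median size was 0.076 for 34 splicing genes and 0.078 for all 1061. At an unadjusted p under 0.05 these 1061 genes gave 27 higher and 29 lower, fewer for their number than all tested genes did. The 34 splicing genes gave 0 in either direction. In bulk tissue, a change in the number of cells of a type and a change in RNA per cell cannot be told apart.

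The intervals show how large a difference these arrays could have hidden. The 95% interval of the difference lay within 2-fold either way for 48 of the 50 genes (96%) and within 1.41-fold for 25 (50%). Over all tested genes the shares were 68.6% and 19.7%. Most of these probe sets are bright, and the 1061 tested genes with a mean log2 value of at least 12 gave 95.9% and 54.4%, close to the splicing genes. SRSF5 (-1.53 to 0.92) and SF3B4 (-0.95 to 1.20) had the widest intervals, and for them a 2-fold difference in at least 1 direction was within the error. A p that misses the threshold does not show that the tissues are equal.

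**Figure D1:**
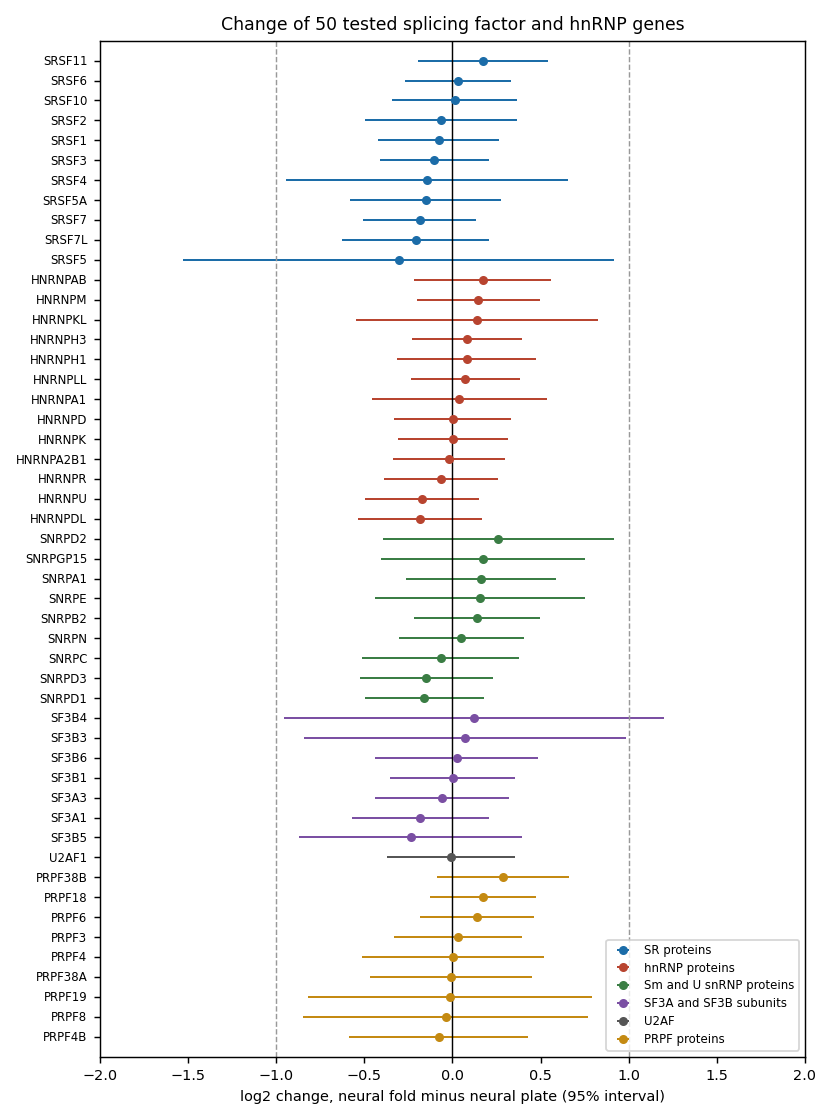
Difference of each of the 50 tested genes, neural fold minus neural plate, on the log2 scale (horizontal axis), with points for the estimate, bars for the 95% interval (4 arrays against 4) and colours for the protein class. Dashed lines mark a 2-fold difference, and every interval holds 0, with those of SRSF5 and SF3B4 reaching past the lines.

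SR proteins carry arginine and serine repeats and promote exon inclusion. Of their 11 genes, 8 lay slightly lower in neural fold, with a median difference of -0.10 and 0 past the threshold. Over all 50 genes, 27 were above 0 and 23 below, where 49.1% of all tested genes were above 0. Directions within a class were not tested. SRSF7, a factor with a zinc knuckle, read 12.60, 12.71, 12.43 and 12.64 on neural fold arrays 1 to 4 and 12.74, 12.85, 12.65 and 12.87 on neural plate arrays 1 to 4. The neural fold value was the lower one in all 4 same-numbered pairs, while the tissues overlapped, and the difference was -0.19 ± 0.14 (SE, limma adjusted p = 0.95). SRSF7L, annotated as a relative of SRSF7, read 13.97, 13.40, 13.63 and 13.71 in neural fold and 14.20, 13.76, 13.79 and 13.80 in neural plate, a difference of -0.21 ± 0.18 (adjusted p = 0.99). It too was lower in all 4 pairs and overlapped, and because similar copies may share signal the pair is not a set of independent readings. The mean of the 2 SRSF7L probe sets differed by only 0.0073, so its difference rests on the brighter one.

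SRSF5 had the largest difference downward and the least certain one. Its leading probe set read 9.14, 10.78, 11.12 and 11.56 in neural fold and 10.10, 11.59, 11.20 and 10.92 in neural plate (-0.31 ± 0.53, limma adjusted p = 1.00). The low reading on the first array of each tissue set this spread, and without neural fold array 1 the difference was 0.20. SRSF11, a splicing factor of nuclear speckles, read 12.36, 12.29, 12.28 and 12.17 in neural fold and 12.39, 11.97, 11.88 and 12.15 in neural plate (0.17 ± 0.16, adjusted p = 1.00). This was the largest difference upward of the class, with overlapping tissues, and the tested SRSF11 probe sets ran from -0.33 to 0.29. Other SR genes also missed the threshold: SRSF1, the prototype of the family, differed by -0.077 ± 0.15, SRSF2, which marks nuclear speckles, by -0.065 ± 0.19, and SRSF3, which also acts in mRNA export, by -0.10 ± 0.14. SRSF6 differed by 0.032 ± 0.13, SRSF10, known as a splicing repressor when dephosphorylated, by 0.013 ± 0.16, and SRSF5A by -0.15 ± 0.19. SRSF4 (-0.14 ± 0.35) lay above the background limit on 3 of 4 neural fold arrays and on 4 neural plate arrays.

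The 13 hnRNP genes spanned -0.18 to 0.17, with 9 above 0 and 4 below, a median difference of 0.040 and 0 past the threshold. HNRNPU, a nuclear matrix and chromatin scaffold protein, read 12.93, 13.04, 13.11 and 13.14 in neural fold and 13.04, 13.32, 13.25 and 13.31 in neural plate. Its neural fold value was lower in all 4 pairs, yet the tissues overlapped and the difference was -0.17 ± 0.14 (limma adjusted p = 0.97). The tested HNRNPU probe sets ran from -0.17 to 0.16. HNRNPDL read 13.04, 13.15, 13.13 and 13.13 in neural fold, and 13.12, 13.12, 13.48 and 13.48 in neural plate, where 2 arrays stood above all the rest (-0.18 ± 0.15, adjusted p = 0.98). Its neighbour in the GRCg7b annotation and closest relative, HNRNPD, which promotes decay of mRNAs rich in A and U, differed by 0.0019 ± 0.15.

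The abundant hnRNP proteins of the classical particle also missed the threshold. HNRNPA1, a repressor of exon inclusion, differed by 0.040 ± 0.22 and HNRNPA2B1, its relative, by -0.019 ± 0.14. HNRNPAB (0.17 ± 0.17) and HNRNPM (0.15 ± 0.15) had the largest differences upward, each higher in all 4 pairs. Their tested probe sets ran from -0.30 to 0.17 for HNRNPAB and from 0.093 to 0.15 for HNRNPM. HNRNPH1 (0.081 ± 0.17) and HNRNPH3 (0.082 ± 0.14), which bind runs of G, HNRNPLL (0.074 ± 0.14), known for CD45 splicing in mammalian lymphocytes, and HNRNPR (-0.065 ± 0.14) lay between. HNRNPK, which binds C-rich RNA, differed by 0.0018 ± 0.14. HNRNPKL, its copy on the female-specific W chromosome of birds, differed by 0.14 ± 0.30, and the sexes of the embryos in each pool are not given in the labels.

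Of the Sm and U snRNP proteins, 6 of 9 tested genes were above 0 and 3 below, with a median difference of 0.14 and 0 past the threshold. SNRPD2, a protein of the Sm ring, read 9.61, 9.09, 9.49 and 10.07 in neural fold and 9.96, 9.27, 9.0 and 8.98 in neural plate (0.26 ± 0.29, limma adjusted p = 1.00). The readings interleaved, and neural plate was the higher tissue in the first 2 pairs. SNRPGP15, the symbol the annotation gives to the gene with the synonym SNRPG, another Sm protein, read 13.42, 13.23, 13.59 and 13.91 in neural fold and 13.68, 13.49, 13.57 and 12.72 in neural plate (0.17 ± 0.25, adjusted p = 1.00). The arrays numbered 4 set most of this difference: it was -0.041 without the low neural plate array 4 and 0.048 without the high neural fold array 4. The 4 tested SNRPGP15 probe sets all lay above 0, from 0.12 to 0.88, and 0 passed the threshold. SNRPD1 read 11.35, 11.55, 11.72 and 11.67 in neural fold and 11.72, 11.84, 11.74 and 11.63 in neural plate (-0.16 ± 0.15, adjusted p = 0.99), with overlap. Proteins of one ring did not all lean the same way: SNRPE was at 0.16 ± 0.26 and SNRPN at 0.051 ± 0.15, while SNRPD3 was at -0.15 ± 0.17. The U2-specific SNRPA1 (0.16 ± 0.19) and SNRPB2 (0.14 ± 0.16) and the U1-specific SNRPC (-0.066 ± 0.20) also missed the threshold. SNRPF, untested, lay above the background limit on 2 neural fold arrays and 1 neural plate array.

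The SF3A and SF3B complexes hold the U2 snRNP on the branch point, and U2AF reads the end of the intron. SF3A1 read 12.18, 11.86, 11.83 and 11.93 in neural fold and 12.27, 12.19, 12.25 and 11.81 in neural plate (-0.18 ± 0.17, limma adjusted p = 1.00). Apart from array 4, neural plate was the higher tissue in each pair. SF3B5, a small subunit, read 8.39, 7.60, 8.10 and 8.68 in neural fold and 7.92, 8.62, 8.75 and 8.41 in neural plate (-0.24 ± 0.28, adjusted p = 1.00), again with overlap. SF3B1, the large subunit at the branch point, differed by 0.0021 ± 0.15, SF3B6, which contacts the branch adenosine, by 0.024 ± 0.20, and SF3A3 by -0.058 ± 0.17. SF3B3 (0.071 ± 0.40) and SF3B4 (0.12 ± 0.47) had far larger errors. U2AF1, the small U2AF subunit that reads the terminal AG, was 13.82, 13.47, 13.39 and 13.47 in neural fold and 13.69, 13.51, 13.62 and 13.38 in neural plate, a difference of -0.0087 ± 0.16 (adjusted p = 1.00). Of these 8 genes, 0 passed in either direction.

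PRPF38B had the largest difference upward of the 50 genes and the smallest adjusted p. It read 9.19, 9.21, 9.50 and 9.36 in neural fold and 8.78, 8.94, 9.25 and 9.13 in neural plate, higher in neural fold in all 4 pairs but with overlapping tissues (0.29 ± 0.16, 1.22-fold, limma adjusted p = 0.81). Its second tested probe set differed by -0.062. PRPF18, a factor of the second catalytic step, read 10.19, 10.15, 9.98 and 10.07 in neural fold and 9.96, 9.94, 9.86 and 9.94 in neural plate (0.17 ± 0.13, adjusted p = 0.95). It was the only 1 of the 50 genes without overlap between the tissues, with 1 higher and 0 lower in neural fold, where 3.55% and 4.5% of all tested genes had no overlap in these directions, so the count is below the background share.

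The other PRPF genes had differences of 0.14 or less in size on their leading probe sets. PRPF8, the protein at the heart of the U5 snRNP, differed by -0.038 ± 0.35, and PRPF6, which bridges the U5 and U4/U6 particles, by 0.14 ± 0.14. PRPF3 (0.033 ± 0.16) and PRPF4 (0.0054 ± 0.23) sit in the U4/U6 particle. The leading PRPF4 probe set lay above the background limit on 2 of 4 neural fold arrays and on 4 neural plate arrays. The other tested PRPF4 probe set, the brighter one by mean deposited intensity, differed by -0.71 and also missed the threshold, so the PRPF4 value depends on the probe set read. PRPF19, a ubiquitin ligase of spliceosome activation, differed by -0.014 ± 0.35, PRPF38A, needed for that activation, by -0.0071 ± 0.20 and PRPF4B, a kinase, by -0.078 ± 0.22.

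By same-numbered pairs, 5 of the 50 genes were higher in neural fold in all 4 pairs (10%) and 4 were lower in all 4 (8%), where all tested genes gave 12.9% and 15.6%.

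The other probe sets of the same genes were tested too. Of 76 further tested probe sets, 0 passed the adjusted threshold in either direction and 1, higher in neural fold, had an unadjusted p under 0.05. Over all tested probe sets, 0.694% were called higher and 0.585% lower, and 3.86% and 4.39% had an unadjusted p under 0.05 in these directions. The one among the splicing genes was a PRPF3 probe set with a difference of 1.01 ± 0.40 (limma adjusted p = 0.51), the only one over 1 in size, and it lay above the background limit on 3 neural fold arrays and 1 neural plate array. The leading PRPF3 probe set differed by 0.033 and another dim one by 0.24. Of 36 genes with at least 2 tested probe sets, 30 had probe sets within 0.5 of each other, and 14 had all of them on the same side of 0. No gene had probe sets on opposite sides of 0 that were more than 1 apart.

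These genes also varied between arrays of the same tissue, and the arrays numbered 1 stood apart. With the first array of each tissue set against the mean of the other 3, 44 of 50 genes deviated in the same direction in both tissues (88%), beside 78.8% of all tested genes. In both tissues, 6 genes lay over 0.5 higher on array 1 and 4 lay over 0.5 lower (12% and 8%, beside 14.2% and 16.7% of all tested genes). Averaged over both tissues, the median size of the array 1 deviation was 0.25 for these genes, beside 0.45 over all tested genes. These deviations are descriptions, with no test, and the genes named next were chosen after their values were seen.

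SF3B4 stood 1.42 higher on neural fold array 1 and 1.58 higher on neural plate array 1. SF3B3 stood 1.17 and 1.32 higher, and PRPF8 1.14 and 1.05 higher. Each of these exceeds every difference between the tissues among the 50 genes. PRPF19 stood 0.98 and 1.11 higher, while SNRPE was at -0.80 and -0.68 and SRSF5 at -2.02 and -1.14. The genes with the widest intervals between tissues, SRSF5, SF3B4 and SF3B3, were among those that moved most with array number. This is not a separate result, because the same deviations enter the width of the interval.

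**Figure D2:**
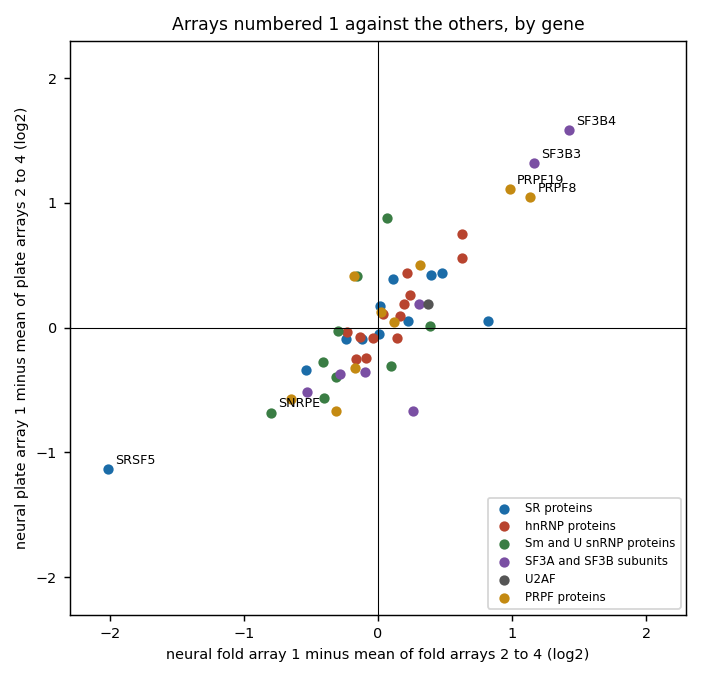
Each point is 1 of the 50 tested genes, with the first neural fold array minus the mean of neural fold arrays 2 to 4 on the horizontal axis and the same for neural plate on the vertical axis (log2 units), coloured by class. Most points lie at the lower left and upper right of the origin, with SF3B4 at 1.42 and 1.58 and SRSF5 at -2.02 and -1.14 at the ends.

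Probe sets of the same gene could part on the arrays numbered 1. All 5 tested SF3B3 probe sets were higher there on average over the tissues (0.63 to 1.62), as were both of SF3B4 (1.5 and 1.98) and both of PRPF19 (1.05 and 0.96). For HNRNPA1, in contrast, the leading probe set was 0.59 higher while the other 4 were at -0.43 to -0.68. HNRNPKL split in the same manner, with 2 probe sets at 0.69 and 0.87 and 2 at -1.44 and -1.40. The SRSF5 probe sets were at -1.58, 0.45 and 0.67, and those of SNRPE at -0.74 and 0.65. The SRSF5 value of 0.67 averages -0.25 in neural fold and 1.58 in neural plate. For HNRNPA1, HNRNPKL, SRSF5 and SNRPE, the level on these arrays relative to the others therefore depended on which probe set was read. The GAPDH ratio of 3′ to 5′ signal was also highest on these 2 arrays. The actin ratio was not: it was 1.36 on neural fold array 1, the lowest of all arrays, and 1.74 on neural plate array 1, within the range of the others. The part of either ratio in these deviations was not tested.

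**Figure D3:**
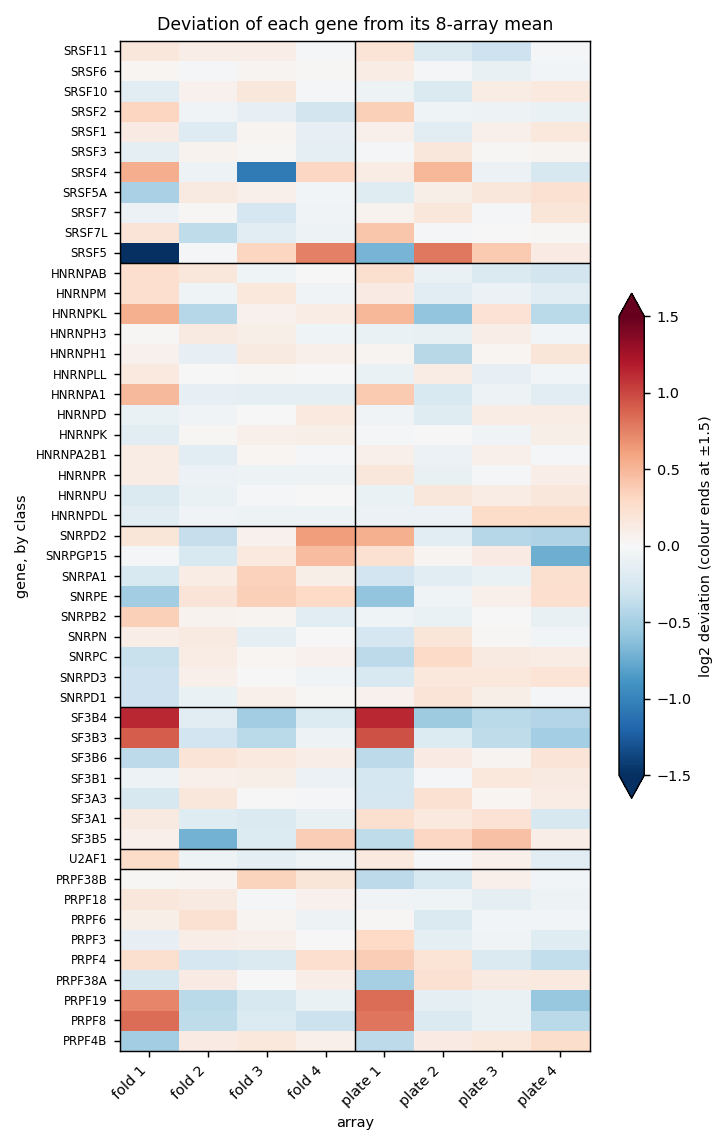
Log2 deviation of each tested gene (rows, grouped by class) from its own mean over 8 arrays, for the 4 neural fold and 4 neural plate arrays (columns). Red is above and blue below the mean, and SF3B4, SF3B3, PRPF8 and PRPF19 are red in both columns of array 1, where SRSF5 is blue. SRSF4 is blue on fold array 3, a dim gene away from that pattern.

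Taking this array effect out narrowed the intervals and added no call. With the replicate number as a block, where 1.11% of all tested genes were higher and 1.19% lower in neural fold, 0 splicing factor and hnRNP genes passed, and the median half-width of the 95% interval went from 0.38 to 0.29. Some intervals widened in this fit, such as that of SNRPGP15, with a half-width that went from 0.58 to 0.73. PRPF38B had an unadjusted p of 0.033 in this paired fit and a limma adjusted p of 0.29, the smallest of the set. Without both arrays numbered 1 (background 1.48% higher and 1.57% lower), 0 passed, differences ran from -0.47 to 0.47, and the smallest adjusted p was 0.42. A term for the arrays numbered 1 (background 2.18% higher and 2.67% lower) also gave 0, with a smallest adjusted p of 0.29.

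Beyond these families, 141 other genes of splicing were tested from a list of 185 symbols covering further snRNP and catalytic proteins, the exon junction complex, snRNP assembly, SR protein kinases and tissue-restricted regulators. At the same threshold 0 were higher and 0 lower, and at an unadjusted p under 0.05 there were 2 higher and 2 lower, smaller shares than the 4.01% and 5.06% of all tested genes. The median difference was -0.010. Those 4 genes are described next with the largest differences of the list.

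ESRP2, an epithelial splicing regulator, had the largest difference upward. It read 9.59, 10.63, 10.43 and 10.43 in neural fold and 8.23, 9.39, 9.30 and 9.50 in neural plate, with no overlap, a difference of 1.17 ± 0.34 (2.24-fold, limma adjusted p = 0.25). The first array was the lowest in both tissues. With the replicate number as a block ESRP2 passed (1.17 ± 0.12, adjusted p = 0.024), as it did without both arrays numbered 1 (1.1 ± 0.12, adjusted p = 0.0098). It was the only 1 of the 141 genes that passed in the blocked fit. There, 1.11% of all tested genes were called higher and 1.19% lower.

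Its relative ESRP1 read 7.68, 7.65, 7.35 and 7.48 in neural fold and 6.42, 7.18, 6.5 and 7.24 in neural plate, again with no overlap (0.71 ± 0.23, limma adjusted p = 0.34), and lay above the background limit on 3 of 4 neural plate arrays. RBM38, an RNA-binding regulator of splicing and mRNA stability, read 10.22, 11.94, 11.93 and 11.69 in neural fold and 9.55, 11.11, 11.11 and 11.18 in neural plate (0.71 ± 0.50, adjusted p = 0.92). It was higher in neural fold in every pair and overlapped only through the low first array. RBM38 passed without both arrays numbered 1 (0.72 ± 0.12, limma adjusted p = 0.041) and had an adjusted p of 0.067 with the block. Without those arrays, 2 of the 141 genes were called higher and 0 lower, beside 1.48% and 1.57% of all tested genes. Of 4 measured surface ectoderm markers 1 passed in the same direction: the adhesion gene CDH1 rose, with a difference of 2.3 ± 0.16 (limma adjusted p = 0.00056). The summed intensity of the 4 was 12919 to 15345 in neural fold against 8959 to 10166 in neural plate. Most of that sum was EPCAM (mean log2 13.63 and 13.16), which did not pass itself (0.47 ± 0.14, limma adjusted p = 0.27). GATA3 (1.27 ± 0.33) and GATA2 (0.060 ± 0.62) also missed the threshold. The part of these markers in the ESRP differences was not tested.

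Downward, GEMIN6, of the complex that assembles Sm rings, read 5.4, 8.19, 7.72 and 6.48 in neural fold and 7.93, 7.21, 7.97 and 8.61 in neural plate (-0.98 ± 0.60, limma adjusted p = 0.85). RBFOX1, a neuronal and muscle splicing regulator, read 4.97, 5.69, 7.50 and 6.47 in neural fold and 7.03, 6.20, 7.67 and 7.37 in neural plate (-0.91 ± 0.54, adjusted p = 0.85), and lay above the background limit on 1 neural fold array and 3 neural plate arrays. ELAVL4, a neuronal RNA-binding protein, read 5.82, 7.78, 7.79 and 8.09 in neural fold and 6.47, 8.51, 8.26 and 8.98 in neural plate (-0.69 ± 0.65, adjusted p = 1.00). GEMIN6 scattered within neural fold from 5.4 to 8.19 and lay above the background limit on 2 of its 4 arrays, whereas ELAVL4 was lower in neural fold in every pair. The remaining pair with an unadjusted p under 0.05, named after their values were seen, were the muscleblind regulators MBNL1 (-0.50 ± 0.14, adjusted p = 0.22) and MBNL3 (-0.52 ± 0.18, adjusted p = 0.40).

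**Figure D4:**
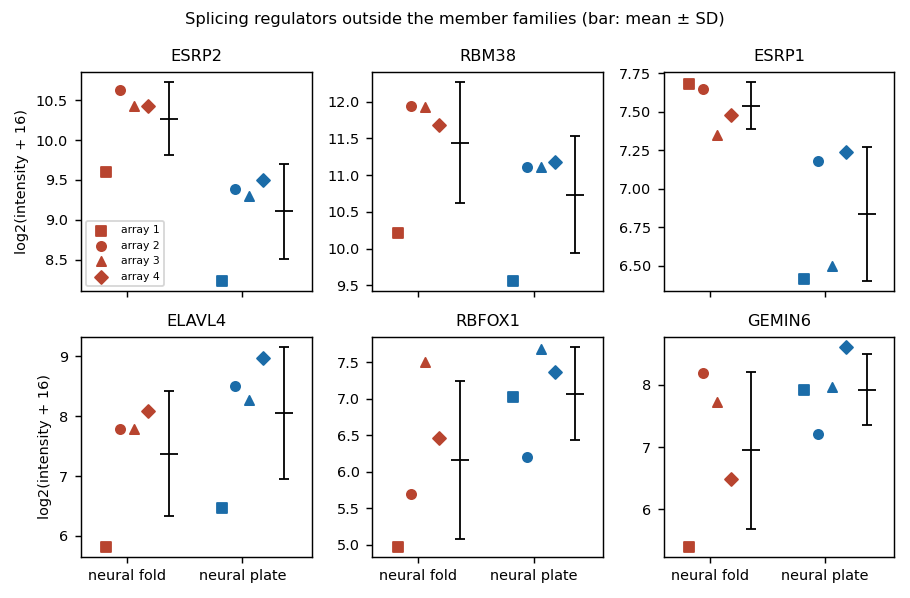
Normalised log2(intensity + 16) of 6 splicing genes outside the member families on each neural fold (red) and neural plate (blue) array, with marker shape for the array number and black bars for the mean ± SD (n = 4). ESRP2 and ESRP1 show no overlap between the tissues, and in ESRP2, RBM38 and ELAVL4 the first array is the lowest in both; the vertical axes do not start at 0.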

How the data were processed

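Each probe set had 1 linear intensity on each array, as deposited by the authors, and the submitters' processing notes name GCOS; its version, background treatment and detection calls are not given in the sources used here. Trimmed means (2% at each end) were 500.1 on every array.

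Of 38535 probe sets, 96 controls were left out. Values were taken as log2(intensity + 16), so differences of dim genes are understated, and quantile normalized. Probe sets at or above the 40th percentile of the 8-array mean (23063) were fitted together with limma 3.58.1 (lmFit, eBayes) in R 4.3.3, with Benjamini-Hochberg adjustment. The background limit was each array's 95th percentile of 59 unspiked controls. It ran from 63.61 to 134.71 in neural fold and from 32.29 to 128.57 in neural plate. Counts of arrays above it are therefore not on equal terms between the tissues. The number of arrays limits the precision.

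Symbols came from the platform annotation of the array. All 51 were found in the RefSeq table of GRCg7b. A pair of probe sets with several symbols was left out. No build is named in the files, so no coordinates are given, and no sequences were used here.

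Members, lists and settings were chosen with earlier results of these data known. The rule for values on every array took genes past the threshold (0), the 5 largest differences each way, the smallest p of each class, and genes with probe sets over 1 apart across 0 (0); outside the families it took the 3 largest differences each way. Deviations from tissue means correlated between same-numbered arrays at 0.62, 0.19, 0.29 and 0.21. For neural fold arrays 1, 3 and 4 the closest neural plate array had the same number, while for array 2 it was array 4. The labels number the replicates but name no pairs. The main fit used no pairing, and the number was treated as pairing only in the blocked fit and in the counts by pair. The fit was tested on simulated data with independent noise on every array. Those data lacked the shared deviation of the arrays numbered 1, so they cannot show how the fit handles it.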

Additional observations from a re-analysis of the deposited data

Results flagged for a closer look

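Among 28 groups of 4 arrays (14 genes in 2 tissues), 1 held an array far from its others, and chance alone gives about 1 in 20 such groups. SRSF7L read 14.20 on neural plate array 1, while the other 3 neural plate arrays lay at 13.76 to 13.80. Array 1 was also its highest in neural fold (13.97), and stood above the mean of the other 3 arrays by 0.39 in neural fold and 0.42 in neural plate. The chance rate does not allow for a deviation shared by the arrays numbered 1.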

How the results depend on the processing

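Under 19 alternatives, 0 splicing factor and hnRNP genes were called, and the smallest adjusted p was 0.29 (replicate block). Of 266 values of the 14 named genes under these alternatives, 255 kept their sign and 11 reversed, none past the threshold: U2AF1 (0.060 both as deposited and with median centring, 0.020 with the mean of its probe sets, -0.10 to 0.040 without 1 array), SRSF5 (0.20 without neural fold array 1, -0.61 to 0.20 over all arrays left out), SNRPGP15 (-0.041 without neural plate array 4, up to 0.28 without another array) and SRSF7L (0.0073 with the mean of its probe sets). The median difference was 0.046 as deposited and with median centring, and -0.016 to 0.026 without 1 array. All probe sets called numbered 295, against 149 with median centring, 398 with the replicate block, 540 without both arrays numbered 1, 863 with a term for them, and 139 to 301 without 1 array. Of the 141 other splicing genes, 1 was called higher in the paired fit and 2 without both arrays numbered 1 (ESRP2 and RBM38), with 0 lower in either. With the term, 2 were called higher and 2 lower (SRPK2 and MBNL3). Over all tested genes the shares called higher in these fits were 1.11%, 1.48% and 2.18%, in that order. The shares called lower were 1.19%, 1.57% and 2.67%. Among the markers the block, chosen for them after seeing the data, added LMO2 and APOA1 as lower. Apart from these and ESRP2, which it called higher, the block changed no call of the members, other splicing genes and markers. The cause of these shifts was not tested.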
